A study of Mus musculus with 33 samples.

Results

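The genes described are the collagens and a set of matrix genes of the meninges and perivascular connective tissue, measured by bulk RNA sequencing of mouse nucleus accumbens. Members were all gene symbols of the deposited count table made of Col, a number, a and a number, plus Serpinh1, Lum, Dcn, Ogn, Fn1, Prg4, Igf2, Slc6a20a and Bgn. This gave 53 of the 24061 genes in the table, 44 collagens and 9 others, and the rule uses gene names alone. A filter on low counts kept 49 of them (40 collagens and all 9 others) among 14607 tested genes. Col10a1, Col4a4, Col6a6 and Col9a1 did not pass it.

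Collagens are triple-helical proteins that are hydroxylated and folded in the endoplasmic reticulum, where the chaperone Hsp47 (Serpinh1) holds the helix until it leaves for the Golgi. Brain parenchyma contains little fibrillar collagen. Most of it lies in the meninges and around large vessels and is made by fibroblasts, while endothelial cells and pericytes make the type IV collagen of the vascular basement membrane and some transmembrane collagens are made by neurons.

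The mice were C57BL/6J and 7 to 9 weeks old. Conventional mice came from a commercial supplier, and whole cages of 4 to 5 were given either plain water (H2O, normal microbiome) or an antibiotic drink (Abx, depleted microbiome) holding vancomycin and bacitracin (each at 0.5 mg/mL), neomycin (2 mg/mL) and the antifungal pimaricin (1.2 µg/mL), begun 2 weeks before the experiment and kept up throughout. Germ-free mice (GF) of matched age were bred and held in isolators of the institution, with sterilised food and water. Each state had a saline group (6 libraries each) and a group injected for 7 days with morphine at a daily 20 mg/kg (5 libraries each), 33 libraries in all. The labels give neither the cage nor a sequencing batch, so the germ-free state cannot be told apart from the breeding colony or from any separate handling of these libraries. They also do not state that each library is a separate mouse, and the p-values measure only the spread between libraries.

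Reads counted to genes ranged from 4.87 M to 15.3 M per library (M stands for 1000000). The 22 libraries of conventional mice held 9.36 M to 15.3 M, GF saline replicate 1 held 15.3 M, and the other 10 GF libraries held 4.87 M to 8.13 M. Accumbens markers were present in every library, with Drd1a at 92.2 to 340 and Ppp1r1b at 490 to 1470 CPM (reads of a gene per 1000000 reads of its library, after scaling between libraries). The summed level of 6 cortical neuron markers ranged from 8.53 to 1473 CPM over all libraries and from 8.76 to 11.9 in the GF morphine ones. Pituitary hormone genes (6, of which 3 were tested) summed to 2.68 to 72.6 CPM in GF saline and 4.78 to 42.1 in GF morphine libraries, against 1.69 to 4.64 in the conventional ones. In bulk tissue, fewer cells of a type and less RNA per cell cannot be told apart.

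Per kilobase of transcript, Col6a1, a chain of the beaded type VI filaments, was the most abundant member at 63.4 ± 14.6 CPM per kb (mean ± SD over 33 libraries). Col25a1, a transmembrane collagen of neurons, followed at 12.5 ± 2.37 CPM per kb. Serpinh1 (8.58 ± 2.70), Col4a2 (8.43 ± 1.24), Fn1 (7.70 ± 1.08), Igf2 (6.86 ± 1.75), Col9a3 (6.48 ± 0.990) and Col4a1 (6.21 ± 0.942) came next on the same scale, and from Serpinh1 down neighbours in this order lay within their SD. Col3a1, the main chain of thin fibrils, averaged 1.10 ± 2.41 CPM per kb, an SD larger than its mean. Col4a4 was lowest at 0.0441 CPM per kb. The members varied more between replicates than most genes. Their median biological coefficient of variation was 0.197 against 0.106 over all tested genes, and all 49 lay above the median of all genes (0.186 against 0.107, and 48 of 49, without GF morphine replicate 3). They were also less abundant, with a median of 5.52 CPM against 26.5, and no comparison at matched abundance was made.

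One library stood apart. GF morphine replicate 3 held the highest level of all 33 libraries for 19 of the 49 tested members, or 38.8%, against 2.04% of all tested genes. In no other library did more than 4 members peak. It had 6.86 M counted reads, within the range of the GF libraries other than GF saline replicate 1. By class these were 7 of the 9 non-collagen members, 6 of 11 fibrillar collagens, 3 of 8 basement membrane collagens, 2 of 6 network and anchoring collagens, 1 of 9 FACIT collagens, 1 of 6 type VI chains and 0 of 4 transmembrane collagens, counted over all 53, which adds the untested Col10a1. Relative to the median of the other 32 libraries, Prg4 was 30.1-fold higher there, Col3a1 29.1-fold, Lum 8.39-fold, Ogn 7.47-fold, Col1a1 and Col5a2 5.07-fold each, and Dcn 3.81-fold. Col4a1 stood at 1.14-fold and Col6a1 at 0.862-fold of that median.

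A second library, Abx saline replicate 1, was high in part of the same genes. Prg4 stood 3.95-fold above the median of the other 32 libraries, Ogn 3.71-fold, Col13a1 2.52-fold, Col1a1 2.51-fold, Slc6a20a 2.15-fold, Igf2 2.03-fold, Col3a1 2.01-fold and Col1a2 1.58-fold. It peaked for 4 tested members (8.16%, against 1.24% of all tested genes), as many as GF saline replicate 2 and GF saline replicate 5 each did. Slc6a20a, a proline transporter, and Igf2, a growth factor, were higher in this library than in GF morphine replicate 3, while Col3a1, Lum and Col5a2 were far higher in the latter.

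The summed level of meningeal fibroblast markers that are not members was high in both libraries. The 16 markers (11 tested) summed to 24.2 to 42.9 CPM in H2O saline, 25.7 to 40.7 in GF saline, 24.5 to 33.4 in libraries of water mice given morphine, and 24.3 to 40.1 in those of antibiotic mice given morphine. The sum was 88.6 CPM in Abx saline replicate 1 and 73.7 in GF morphine replicate 3, the highest and the next highest of the 33. Of the 16 markers, 9 peaked in Abx saline replicate 1 and 4 in GF morphine replicate 3, where Slc22a2 had no read. The sum of 10 choroid plexus markers (4 tested) ranged from 25.8 to 65.2 CPM over all groups. It was 60.9 CPM in GF morphine replicate 3, rank 2 of the 33 after Abx morphine replicate 3. Of the 10, 1 peaked in GF morphine replicate 3 (Aqp1, 1.28 CPM against at most 0.752 elsewhere) and 1 in Abx saline replicate 1 (Kcnj13, 0.866 CPM). Ttr, the defining marker of choroid plexus, had 1 read in each of these 2 libraries, and Folr1 had none. Pituitary hormone genes summed to 22.8 CPM in GF morphine replicate 3, rank 3 of the 33. Other lists that could mark neighbouring tissue were also measured, with 8 ependymal markers summing to 11.3 to 54.6 CPM and 7 blood markers (1 tested) to 1.03 to 11.2. The part of meningeal tissue in the members' levels was not tested.

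**Figure D1:**
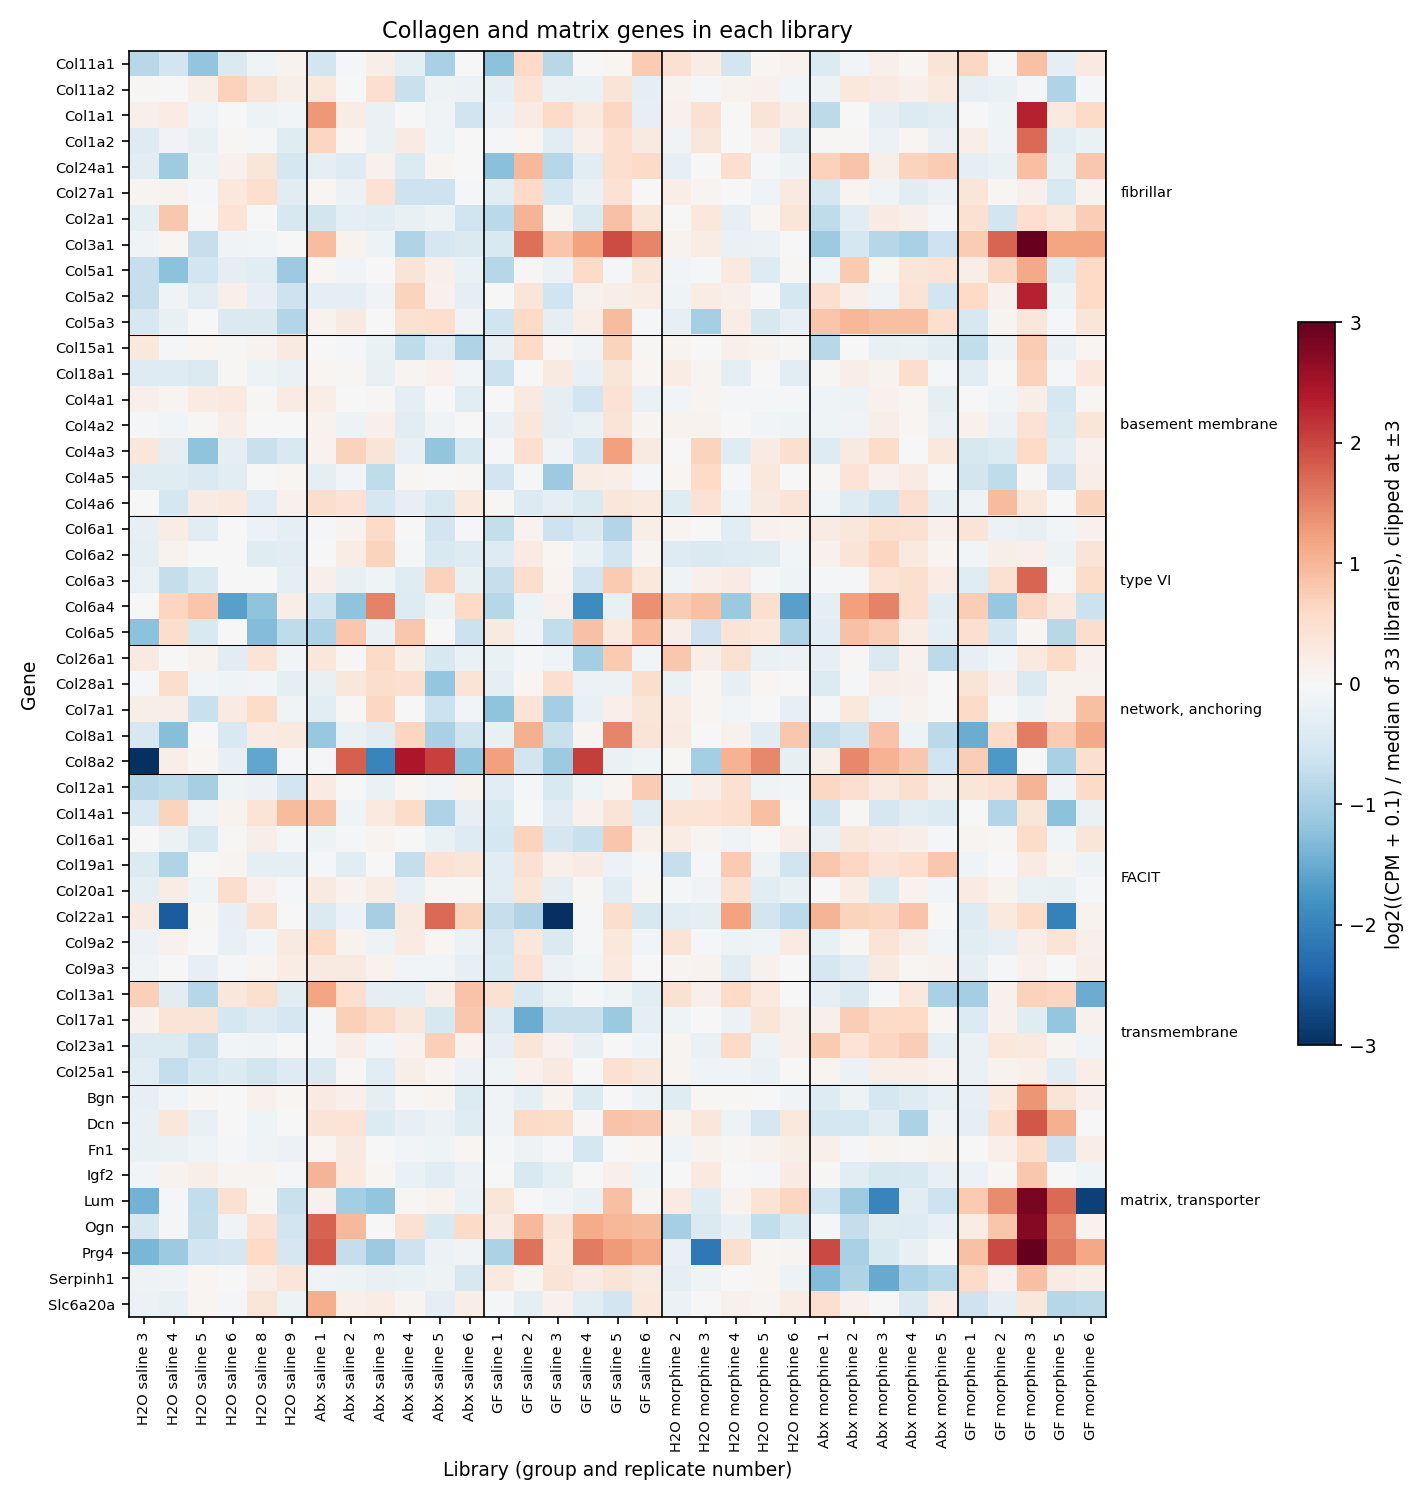
Level of each tested member (rows, ordered by class) in each of the 33 libraries (columns, ordered by group), as the log2 ratio of its CPM to the median of the 33 libraries, with a small constant added and the scale clipped at both ends. The column of GF morphine replicate 3 is high for fibrillar collagens and matrix members, with Col3a1 29.1-fold over the median of the other libraries, and Abx saline replicate 1 is high for fewer of them.

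**Figure D2:**
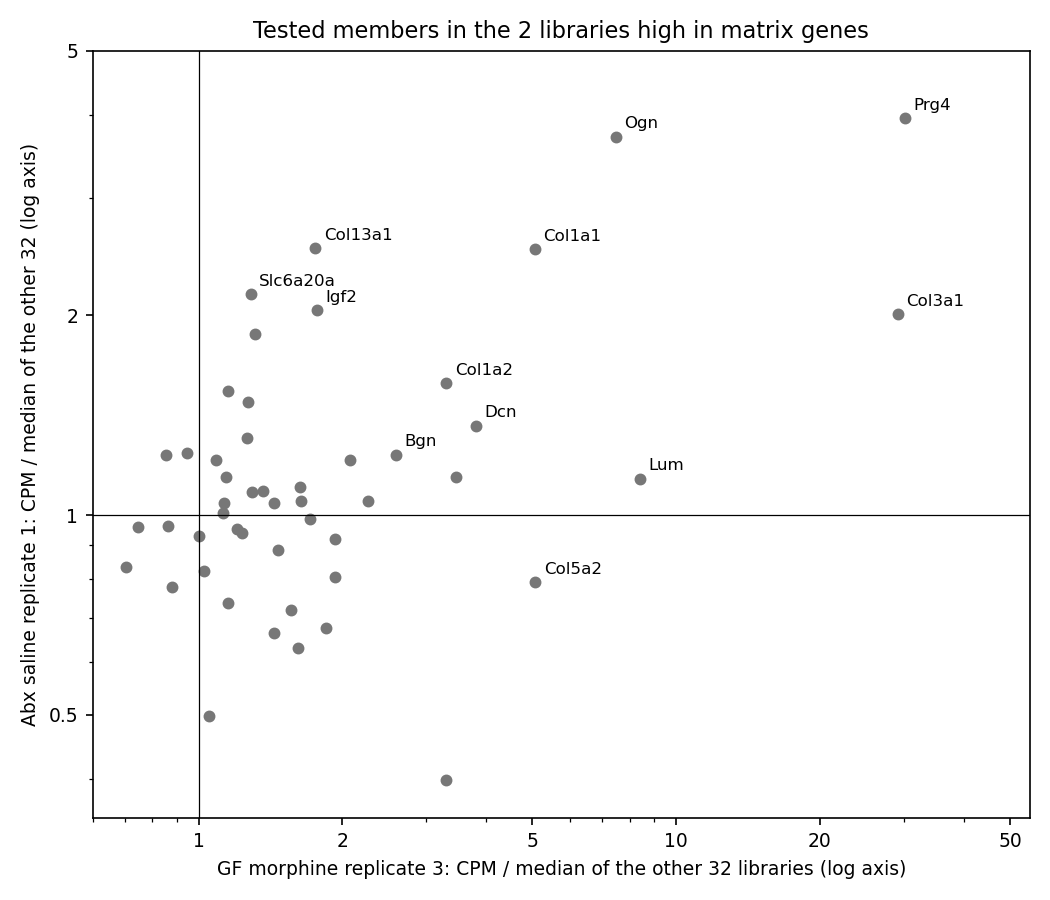
Each point is a tested member, placed by its fold over the median of the other 32 libraries in GF morphine replicate 3 (x, log axis) and in Abx saline replicate 1 (y, log axis). Prg4 and Ogn were high in both libraries, Lum and Col5a2 in the first alone.

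Over the 8 pairwise comparisons, 15 of the 49 tested members passed the threshold in at least 1, with edgeR's quasi-likelihood test and p-values adjusted over all tested genes at 0.05. Of these, 5 passed in 2 or more comparisons, and 22 pairs of member and comparison passed. Of all tested genes at least 32.9% passed in 1 or more comparisons, as that share passed in germ-free against water saline mice alone. Germ-free against water saline mice gave 6 members, all higher, where 32.9% of all genes passed, 18% higher and 14.9% lower. The median log2 difference of the members was 0.10, and 0.01 over all genes. Germ-free against antibiotic saline mice gave 3 higher and 1 lower, where 14.6% of all genes were higher and 12.8% lower (27.4% in all). Among morphine mice, germ-free against water gave 6 higher and none lower, where 3.2% of all genes were higher and 2.66% lower (5.86% in all). Antibiotic against water morphine mice gave 3 higher and 2 lower, where 4.57% of all genes were higher and 5.76% lower (10.3% in all). Comparisons that share a control group share its libraries, and the counts are not independent.

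Morphine itself moved few members. Under antibiotics 1 member passed, Serpinh1, which was lower, where 3.2% of all genes were lower and 2.22% higher (5.42% in all). The next smallest p there were those of Col19a1 (0.65 ± 0.21; edgeR, adjusted p = 0.0581) and Col5a3 (0.63 ± 0.20; 0.0661). In water mice edgeR called none of the 49 (and 0% of all genes), with 5 members at an unadjusted p under 0.05 (2222 of all 14607 genes). DESeq2 called 2 members there (2.69% of all genes) and limma voom 4 (9.07%). A fit of those groups alone called 5 (Col12a1, Col25a1, Col4a1, Col5a1 and Fn1), where 6.97% of all genes passed. The smallest p were those of Col25a1, Col12a1 (0.64 ± 0.19; edgeR, adjusted p = 0.113) and Col5a1 (0.66 ± 0.23; 0.170). In germ-free mice edgeR called none (0.00685% of all genes), with 9 members at an unadjusted p under 0.05 (961 of all 14607 genes). Neither other tool called a member there. Bgn (0.62 ± 0.17; edgeR, adjusted p = 0.542), Col3a1 (1.69 ± 0.49; 0.569) and Lum (1.51 ± 0.46; 0.574) led there, and the Col3a1 difference was 0.03 without GF morphine replicate 3. Antibiotic against water saline mice also gave none with edgeR (0.116% of all genes, 0.0616% higher and 0.0548% lower). An unadjusted p under 0.05 was reached by 9 members (1760 of all 14607 genes). DESeq2 called 1 member (0.712% of all genes) and limma voom 2 (1.23%). The 3 members with the smallest p in that comparison were Col25a1, Col5a1 and Col12a1.

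Fibrillar collagens form the tensile fibres of connective tissue. Col3a1 was higher in germ-free than in water mice under both injections. In saline mice it ranged from 1.70 to 2.92 CPM in H2O libraries (median 2.63) and from 2.01 to 11.2 in GF libraries (median 7.28). GF saline replicate 1, the deepest of the GF libraries, gave the 2.01, and the other 5 were at 5.09 or above, so the groups overlapped only through that library. The difference was 1.38 ± 0.53 on the log2 scale (2.59-fold; edgeR, adjusted p = 0.0450, ± SE throughout for log2 differences). Without GF saline replicate 1 it was 1.61 (edgeR, adjusted p = 0.0171), and leaving out any other of the 12 libraries ended the call (adjusted p up to 0.0915), as did limma voom (0.103) and a GC and length correction (0.0697). GF morphine replicate 3 is in neither group but shares the estimate of spread. Without it the saline difference was 1.39 ± 0.29 (edgeR, adjusted p = 5.88e-04), and GF saline libraries also passed against Abx saline libraries (1.28 ± 0.29, adjusted p = 0.00162). Meningeal fibroblast markers overlapped between these groups, at 25.7 to 40.7 CPM in GF and 24.2 to 42.9 in H2O saline libraries.

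In morphine mice Col3a1 read 4.87, 9.69, 79.5, 6.52 and 6.48 CPM in the 5 GF libraries and 3.06, 3.28, 2.43, 2.49 and 2.82 in the 5 H2O libraries. Every GF library lay above every H2O library, and replicate 3 lay far above both. The log2 difference was 2.94 ± 0.54 (edgeR, adjusted p = 0.00164). Without GF morphine replicate 3 it was 1.30 ± 0.32 and still passed (edgeR, adjusted p = 0.0267), but in a fit of these groups alone the difference missed the threshold (0.0611). Over both injections, 8 of the 11 GF libraries exceeded all 22 conventional ones, and 10 of 11 exceeded the other 21 once Abx saline replicate 1 (5.48 CPM) was set aside. Abx morphine libraries read 1.27, 1.94, 1.503, 1.40 and 1.80 CPM, all below the H2O morphine libraries, but the log2 difference of -0.82 ± 0.63 did not pass (edgeR, adjusted p = 0.456).

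The promoters of Col3a1, called in both comparisons of GF with H2O mice, and of Col1a2, called in neither, are shown as the 250 bases before the RefSeq start in GRCm38.p6. Capitals mark a TATAAA or CCAAT match on either strand. Col3a1 (chr1:45311288-45311537, plus strand) has TATAAA from position -117 of its start, and Col1a2 (chr6:4505368-4505617, plus strand) has CCAAT from position -109.

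Col3a1: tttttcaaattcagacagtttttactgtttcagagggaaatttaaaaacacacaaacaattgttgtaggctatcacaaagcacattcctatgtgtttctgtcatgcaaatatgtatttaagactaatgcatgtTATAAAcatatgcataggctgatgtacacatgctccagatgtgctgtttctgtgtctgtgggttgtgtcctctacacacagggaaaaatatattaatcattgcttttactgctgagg

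Col1a2: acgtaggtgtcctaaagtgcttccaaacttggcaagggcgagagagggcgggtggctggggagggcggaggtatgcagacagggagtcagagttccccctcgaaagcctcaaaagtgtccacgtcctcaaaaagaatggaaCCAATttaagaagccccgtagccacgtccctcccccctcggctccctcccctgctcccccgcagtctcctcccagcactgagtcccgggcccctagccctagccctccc

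The table held an entry for 40 of the 53 members (46 entries). TATAAA was found in 13% of these entries and in 12.4% of 32851 promoter windows of the same length, and CCAAT in 30.4% against 33.8%. Such matches are a description of the letters, and these data measured no binding there.

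Col1a1 and Col1a2, the chains of type I collagen, passed in none of the 8 comparisons, with smallest adjusted p of 0.186 and 0.244 (edgeR, both in GF against H2O morphine mice). Col1a1 averaged 5.21 ± 0.573 CPM in H2O saline, 6.16 ± 3.45 in Abx saline, 6.19 ± 1.55 in GF saline, 6.15 ± 0.823 in water mice given morphine and 4.08 ± 0.791 in antibiotic mice given morphine. In GF morphine libraries it read 5.15, 4.70, 26.2, 6.36 and 7.84 CPM. Apart from replicate 3 and from Abx saline replicate 1 (13.0 CPM), all libraries lay between 2.98 and 8.01 CPM. Col1a2 read 51.4 CPM in GF morphine replicate 3, 24.5 in Abx saline replicate 1 and 11.9 to 22.2 in the other 31. Without GF morphine replicate 3 the log2 difference between GF and H2O morphine mice was -0.04 for Col1a1 and -0.12 for Col1a2.

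Type V chains, which set fibril diameter, gave several calls. Col5a1 ranged from 2.01 to 3.96 CPM in H2O saline (median 3.07) and 2.62 to 7.22 in GF saline libraries (median 4.79), a log2 difference of 0.70 ± 0.23 (edgeR, adjusted p = 0.0211). In 5 of 6 GF libraries it lay above the H2O range. All 6 Abx saline libraries, at 4.18 to 6.32 CPM, also lay above that range, but that difference of 0.73 ± 0.23 did not pass (edgeR, adjusted p = 0.183). Leaving out H2O saline replicate 4 or 9 or GF saline replicate 4 or 6 ended the GF call, with adjusted p of 0.0519 (H2O saline replicate 9) to 0.0769 (GF saline replicate 4).

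Col5a3 was highest in antibiotic mice given morphine. It read 4.97, 5.58, 5.22, 5.27 and 3.89 CPM in Abx morphine and 2.32, 1.34, 3.22, 1.96 and 2.32 in H2O morphine libraries. The groups did not overlap, and the log2 difference was 1.15 ± 0.22 (2.22-fold; edgeR, adjusted p = 6.81e-04), which passed with any library of these groups left out. Cortical neuron markers summed to 152 to 973 CPM (median 656) in Abx morphine and 8.53 to 1172 (median 82.8) in H2O morphine libraries, with the 1172 in replicate 4, which also had the highest Col5a3 of its group. Their part in the Col5a3 levels was not tested. In GF saline against H2O saline libraries its difference of 0.57 ± 0.22 passed narrowly (edgeR, adjusted p = 0.0478). Of the 12 libraries, the call held only without H2O saline replicate 5 or GF saline replicate 1 or 3, and leaving out any of the other 9 libraries ended it (adjusted p up to 0.154). Col5a2 read 5.29, 3.82, 17.6, 3.10 and 5.29 CPM in GF morphine and 3.16, 4.10, 3.88, 3.47 and 2.402 in H2O morphine libraries. Its difference of 1.05 ± 0.31 (edgeR, adjusted p = 0.0426) became 0.36 ± 0.24 without GF morphine replicate 3 (adjusted p = 0.421) and was lost without any of the 5 H2O libraries.

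Basement membrane collagens sit under endothelium and the pial surface. Their 2 most abundant chains, Col4a1 and Col4a2, passed in no comparison (smallest adjusted p 0.172 and 0.658 with edgeR). Col4a1 averaged 46.6 ± 3.31 CPM in H2O saline, 39.7 ± 5.31 in Abx saline, 40.5 ± 10.4 in GF saline, 40.4 ± 1.71 in H2O morphine, 39.2 ± 4.33 in Abx morphine and 39.6 ± 6.84 in GF morphine libraries. The spread was widest in GF saline libraries, at 27.4 to 55.5 CPM. Summed endothelial markers (12) were also spread there, at 216 to 363 CPM against 354 to 385 in H2O saline libraries, and 11 mural markers summed to 163 to 263 against 284 to 305. Cldn5, a tight junction gene of endothelium, was 0.85 lower on the log2 scale in GF saline libraries (log2 difference -0.85), and the pericyte receptor gene Pdgfrb was lower too (-0.72). Their part in the Col4a1 levels was not tested.

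Col15a1, which links the basement membrane to fibrils, was the 1 of 7 tested basement membrane collagens to pass. It passed in GF against Abx saline mice, where 27.4% of all genes did. It ranged from 3.62 to 6.81 CPM in GF saline (median 4.38) and from 2.22 to 4.23 in Abx saline libraries (median 3.54), and 4 of the 6 GF values exceeded all Abx values. The log2 difference was 0.52 ± 0.19 (edgeR, adjusted p = 0.0461). Of the 12 libraries, the call held only without Abx saline replicate 1 or 2 or GF saline replicate 1 or 4, and leaving out any of the other 8 libraries ended it (adjusted p up to 0.121).

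Among type VI chains, Col6a2 was higher in antibiotic than in water mice under morphine. It read 28.7, 34.1, 40.7, 32.02 and 27.6 CPM in Abx morphine and 20.1, 19.4, 19.9, 20.2 and 24.5 in H2O morphine libraries, without overlap. The log2 difference was 0.65 ± 0.16 (1.57-fold; edgeR, adjusted p = 0.00749) and passed with any library left out. Col6a1 pairs with it in the same filament. It averaged 331 ± 32.1 CPM in Abx morphine and 262 ± 32.7 in H2O morphine libraries, also without overlap, but its difference of 0.34 ± 0.17 did not pass (edgeR, adjusted p = 0.228).

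FACIT collagens sit on the surface of fibrils, and 3 of the 8 tested passed once each. Of all genes 32.9% passed in GF against H2O saline mice and 10.3% in Abx against H2O morphine mice. Col12a1 ranged from 2.98 to 5.51 CPM in H2O saline (median 3.76) and 4.39 to 10.3 in GF saline libraries (median 5.72), a difference of 0.58 ± 0.19 (edgeR, adjusted p = 0.0201). The edgeR call ended without GF saline replicate 6 (0.37, adjusted p = 0.125) or H2O saline replicate 5 (0.50, adjusted p = 0.0523), with a GC and length correction (0.35, adjusted p = 0.172) and in a fit of these groups alone (0.0642). Col19a1 read 10.4, 9.07, 7.67, 8.30 and 10.4 CPM in Abx morphine and 3.58, 5.75, 10.2, 5.28 and 3.81 in H2O morphine libraries. The groups overlapped through H2O morphine replicate 4, and the difference was 0.65 ± 0.21 (edgeR, adjusted p = 0.0444). H2O morphine replicate 4 also had the highest cortical neuron marker sum of its group, as given for Col5a3. Col14a1 went the other way, with 1.27, 2.01, 1.34, 1.55 and 1.44 CPM in Abx morphine against 2.63, 2.61, 2.83, 3.77 and 1.99 in H2O morphine libraries, a difference of -0.86 ± 0.28 (edgeR, adjusted p = 0.0455). The Col19a1 call held only without H2O morphine replicate 4 or Abx morphine replicate 3, and the Col14a1 call without H2O morphine replicate 6 or Abx morphine replicate 2. Leaving out any of the other 8 libraries ended each (adjusted p up to 0.134 and 0.126).

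Transmembrane collagens include the member with the clearest germ-free difference. Col25a1 ranged from 52.7 to 69.5 CPM in H2O saline (median 62.6), 64.4 to 98.5 in Abx saline (median 83.3) and 79.5 to 119 in GF saline libraries (median 99.7). No GF library overlapped the H2O range, and Abx libraries overlapped both other groups. The difference between GF and H2O was 0.67 ± 0.11 (1.59-fold; edgeR, adjusted p = 3.27e-05), and it stayed between 0.61 and 0.72 whichever library was left out. GF exceeded Abx by 0.28 ± 0.10 (edgeR, adjusted p = 0.0462), a call that, of the 12 libraries compared, held only without Abx saline replicate 2, 4 or 5 or GF saline replicate 1 or 4 and otherwise ended (adjusted p up to 0.128). With a GC and length correction the difference was 0.15 (adjusted p = 0.333). Abx exceeded H2O by 0.39 ± 0.11, which did not pass with edgeR (adjusted p = 0.121) and did with DESeq2 (adjusted p = 0.0464).

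Under morphine Col25a1 passed in neither comparison with H2O mice. Its level was 92.7, 80.6, 81.1, 76.1 and 86.9 CPM in H2O, 91.7, 76.8, 97.9, 99.6 and 92.9 in Abx and 75.1, 92.9, 96.9, 69.7 and 100 in GF morphine libraries, and the 3 groups overlapped. GF exceeded H2O by 0.06 ± 0.12 there (edgeR, adjusted p = 0.793). All 5 H2O morphine libraries lay above all 6 H2O saline libraries, by 0.42 ± 0.11 on the log2 scale (edgeR, adjusted p = 0.0911; DESeq2, 0.0242; limma voom, 0.00719). In germ-free mice the morphine difference was -0.19 ± 0.11. The difference between these responses was -0.61 ± 0.16 (edgeR, adjusted p = 0.0937; DESeq2, 0.0245), and without GF saline replicate 1 edgeR gave an adjusted p of 0.0496.

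Col17a1, a hemidesmosome collagen of epithelia that is also detected in brain, was lower in GF saline libraries (0.602 to 1.54 CPM, median 1.14) than in Abx saline libraries (1.32 to 3.33, median 2.61). The log2 difference was -1.11 ± 0.25 (0.465-fold; edgeR, adjusted p = 0.00190) and passed with any library left out. Against H2O saline libraries (1.26 to 2.51 CPM) it was -0.66 ± 0.26 and just missed the threshold (edgeR, adjusted p = 0.0502). Levels this low rest on 4 to 39 reads per library in the saline groups of GF and Abx mice.

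Serpinh1 encodes the collagen chaperone Hsp47 of the endoplasmic reticulum. Its promoter (chr7:99353240-99353489, minus strand, GRCm38.p6, RefSeq) is printed because Serpinh1 passed in more comparisons than any other member. No TATAAA or CCAAT was found in it on either strand, nor GAANNTTC or TTCNNGAA, paired units of the heat shock element, which 12.8% of all windows hold.

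Serpinh1: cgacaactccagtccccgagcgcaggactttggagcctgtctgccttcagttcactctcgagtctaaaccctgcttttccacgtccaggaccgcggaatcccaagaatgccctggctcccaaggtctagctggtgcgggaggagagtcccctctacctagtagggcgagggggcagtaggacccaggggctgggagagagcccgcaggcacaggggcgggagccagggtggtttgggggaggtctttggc

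The lowest Serpinh1 levels of the whole series were those of antibiotic mice given morphine. The 5 Abx morphine libraries read 7.96, 10.5, 6.88, 10.2 and 11.2 CPM. All were below the other 28 libraries, the lowest of which read 14.2. Abx saline libraries ranged from 14.2 to 18.3 (median 17.5), H2O saline from 17.8 to 25.4 (median 20.2) and GF saline from 20.8 to 26.0 (median 23.9). H2O morphine libraries read 16.4, 18.1, 19.7, 20.7 and 17.8 CPM and GF morphine libraries 29.6, 21.6, 36.7, 23.3 and 22.9.

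Serpinh1 fell with morphine under antibiotics by 0.86 ± 0.13 on the log2 scale (0.552-fold; edgeR, adjusted p = 1.2e-04). Abx morphine mice were also lower than H2O morphine mice, with a log2 difference of -0.99 ± 0.13 (0.505-fold; edgeR, adjusted p = 5.17e-06). Both calls passed with any library left out, with largest adjusted p of 0.00126 and 5.4e-05. In water mice the morphine difference was -0.16 ± 0.12 and in germ-free mice 0.16 ± 0.12, neither of which passed (edgeR, adjusted p = 0.545 and 0.815). The difference in response between antibiotic and water mice was -0.70 ± 0.17, which did not pass with edgeR (adjusted p = 0.111) and passed with DESeq2 (0.0333) and limma voom (0.0270). Summed endothelial markers were 283 to 331 CPM in Abx morphine and 300 to 362 in Abx saline libraries, and meningeal fibroblast markers 24.3 to 40.1 and 26.4 to 88.6. The endothelial genes Emcn (-0.51) and Cdh5 (-0.34) fell in the same comparison. The part of these cells in the Serpinh1 levels was not tested.

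Serpinh1 was also higher in germ-free mice in 2 of the 3 tested comparisons with conventional mice of the same injection. GF against Abx morphine mice was not tested. It did not pass between GF and H2O saline libraries, which overlapped (0.21 ± 0.11; edgeR, adjusted p = 0.162). Every GF saline library exceeded every Abx saline library (0.50 ± 0.12; edgeR, adjusted p = 0.00243), and this passed with any library left out. Every GF morphine library exceeded every H2O morphine library (0.53 ± 0.13; edgeR, adjusted p = 0.0120). Without GF morphine replicate 3 the latter was 0.40 ± 0.12 with an adjusted p of 0.0682, although the remaining 4 libraries, at 21.6 CPM or above, still exceeded the H2O range.

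**Figure D3:**
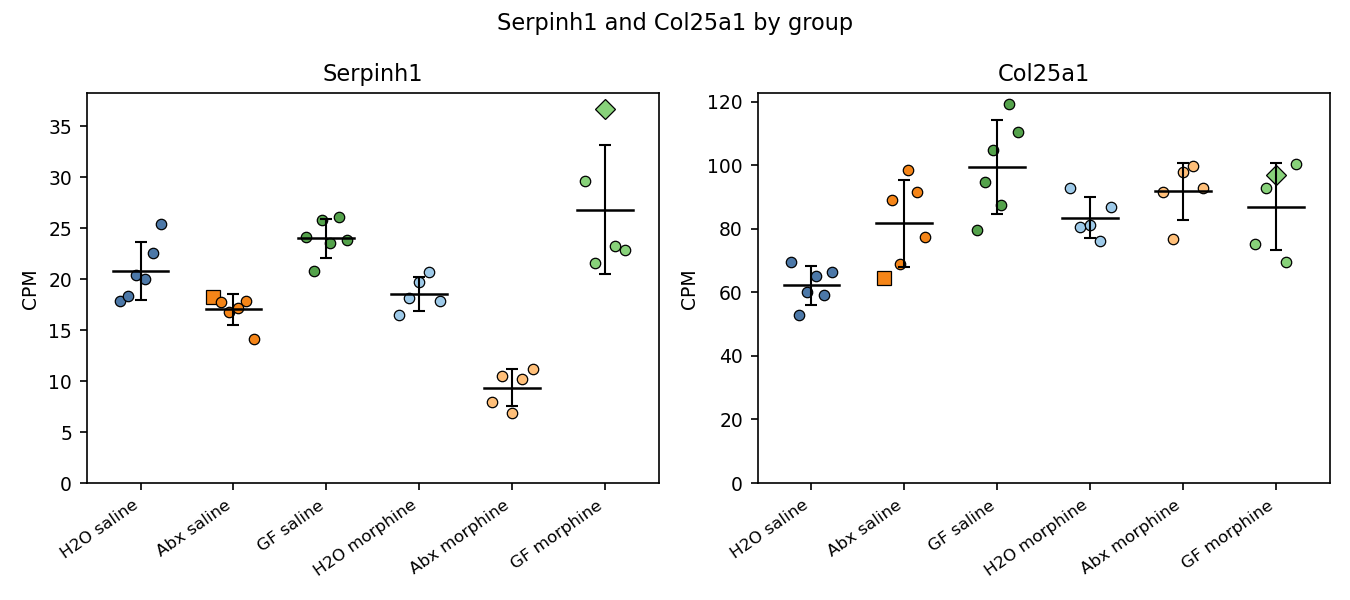
CPM of Serpinh1 and Col25a1 in each library (points) of the 6 groups, with the group mean (line) and SD (bars). The diamond is GF morphine replicate 3 and the square Abx saline replicate 1. The 5 Abx morphine libraries have the lowest Serpinh1 levels, and H2O saline libraries have Col25a1 levels of 52.7 to 69.5 CPM, below all GF saline libraries.

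The small leucine-rich proteoglycans Ogn, Lum, Dcn and Bgn bind fibrils, and Prg4 (lubricin) coats surfaces that slide. Ogn was called higher in germ-free mice under both injections. It ranged from 0.532 to 1.32 CPM in H2O saline (median 0.762) and 1.14 to 2.15 in GF saline libraries (median 1.94), a difference of 1.04 ± 0.40 (edgeR, adjusted p = 0.0440) that, of the 12 libraries compared, held only without H2O saline replicate 8 or GF saline replicate 1 or 3 and otherwise ended (adjusted p up to 0.0861), as it did with a GC and length correction (0.72; 0.186). Without GF morphine replicate 3 in the shared fit it was 1.04 ± 0.32 (edgeR, adjusted p = 0.0132). Under morphine it read 1.11, 1.76, 6.97, 2.79 and 1.02 CPM in GF and 0.421, 0.672, 0.790, 0.528 and 0.663 in H2O libraries. The groups did not overlap, and the difference of 2.12 ± 0.42 (4.35-fold; edgeR, adjusted p = 0.00350) was 1.41 ± 0.39 without GF morphine replicate 3 and still passed (edgeR, adjusted p = 0.0428). The Ogn promoter, shown beside that of Col3a1 because both were called in these 2 comparisons, lies at chr13:49607765-49608014 (plus strand, GRCm38.p6, RefSeq). It holds TATAAA on both strands, in overlapping matches from positions -229 and -227.

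Ogn: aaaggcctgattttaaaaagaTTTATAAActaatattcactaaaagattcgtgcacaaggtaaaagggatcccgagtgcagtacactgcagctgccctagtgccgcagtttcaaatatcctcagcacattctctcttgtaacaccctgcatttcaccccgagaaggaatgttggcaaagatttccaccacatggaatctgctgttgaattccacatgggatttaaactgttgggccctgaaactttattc

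Prg4 read 1.95, 4.26, 29.3, 3.10 and 2.39 CPM in GF morphine and 0.843, 0.149, 1.45, 1.06 and 1.08 in H2O morphine libraries. All GF libraries were higher, by 3.15 ± 0.69 on the log2 scale (8.86-fold; edgeR, adjusted p = 0.00761). Without replicate 3 the difference was 1.66 ± 0.62 and missed the threshold (edgeR, adjusted p = 0.142). In saline mice it was 1.51 ± 0.76 (edgeR, adjusted p = 0.124), and without GF morphine replicate 3 in the shared fit 1.51 ± 0.59, which passed (0.0474). Prg4 was also high in Abx saline replicate 1 (3.85 CPM) and Abx morphine replicate 1 (4.25), where the other Abx libraries were at 0.420 to 1.01.

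Lum read 1.11, 1.76, 4.98, 2.17 and 0 CPM in GF morphine and 0.448 to 0.994 in H2O morphine libraries. Its difference of 1.47 ± 0.45 passed (edgeR, adjusted p = 0.0459) although 1 GF library had no read. Without replicate 3 it was 0.81 ± 0.44 (edgeR, adjusted p = 0.320), limma voom gave 0.49 (0.650), and the call held only without H2O morphine replicate 6 or GF morphine replicate 1 or 6. Bgn and Dcn passed in no comparison, with smallest adjusted p of 0.0547 and 0.0726 (edgeR, GF against H2O morphine mice). Bgn read 34.7 CPM in GF morphine replicate 3 and at most 18.0 elsewhere, and Dcn 16.9 and at most 9.77.

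**Figure D4:**
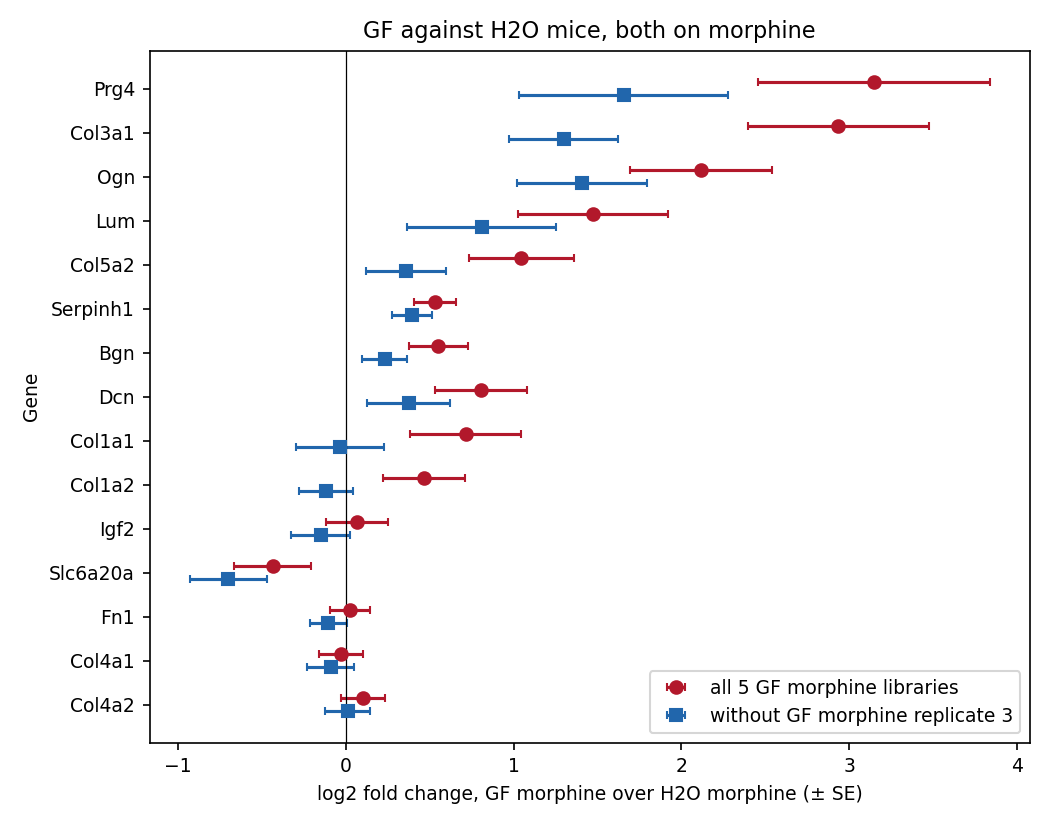
Log2 difference between GF and H2O morphine libraries for named members, with all 5 GF libraries and without GF morphine replicate 3, with standard errors. Col3a1 and Ogn passed in both fits, while the difference of Prg4 went from 3.15 to 1.66 and that of Col1a1 to -0.04.

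Fn1, the fibronectin gene, lay between 41.6 and 92.3 CPM and passed in no comparison (smallest adjusted p 0.338 with edgeR). Group means ran from 58.0 ± 2.54 CPM in H2O saline to 68.4 ± 18.3 in GF morphine libraries. Igf2, a growth factor gene of meninges and choroid plexus, passed in none either (smallest adjusted p 0.119). It read 63.9 CPM in Abx saline replicate 1, 55.5 in GF morphine replicate 3 and 22.8 to 38.5 in the other 31 libraries. Slc6a20a passed in none (smallest adjusted p 0.126). It read 11.6 CPM in Abx saline replicate 1 and 2.95 to 7.77 elsewhere. In GF morphine libraries it read 3.48, 4.40, 6.97, 2.95 and 3.07 CPM, and in H2O morphine libraries 4.85, 5.45, 5.92, 5.81 and 6.38. Of the GF libraries only replicate 3 was above the H2O range, and the other 4 were below it. Without replicate 3 the difference was -0.70 ± 0.23 and did not pass (edgeR, adjusted p = 0.0952).

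**Figure D5:**
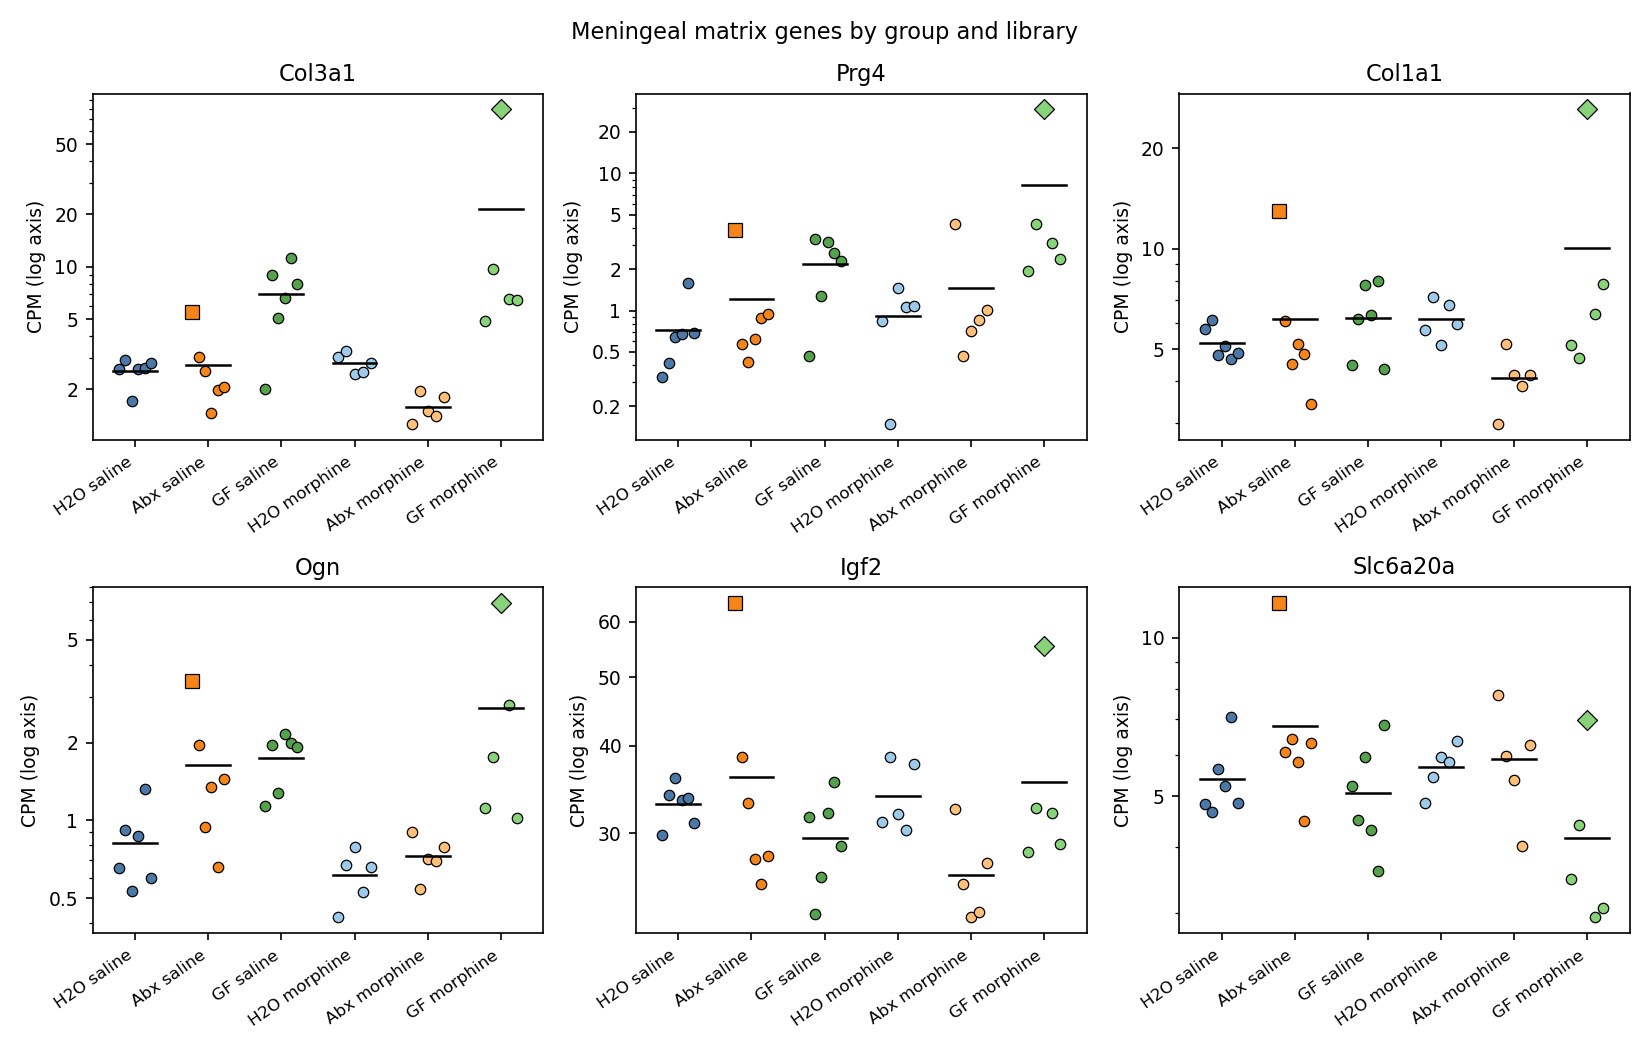
CPM (log axis) of meningeal and fibrillar members in each library of the 6 groups, with the group mean as a line. The diamond, GF morphine replicate 3, is highest for Col3a1 (79.5 CPM) and Prg4 (29.3 CPM), and the square, Abx saline replicate 1, for Igf2 (63.9 CPM) and Slc6a20a (11.6 CPM).

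Whether libraries high in a member were also high in markers of a cell type that makes it was examined by 6 correlations over the 33 libraries, with group means removed and p by permutation within groups, adjusted over the 6. Igf2 and the 11 tested meningeal fibroblast markers correlated with Pearson r = 0.725 (adjusted permutation p = 0.0404) and Spearman rho = 0.436 (adjusted permutation p = 0.141). For Col1a1 and the same markers r was 0.627 (adjusted permutation p = 0.0857) and rho 0.230 (0.491). Without GF morphine replicate 3 and Abx saline replicate 1, the 2 libraries farthest from the median, r was 0.154 for Igf2 (adjusted permutation p = 0.770) and -0.224 for Col1a1 (0.746). Both relations rested on those 2 libraries. Igf2 and 4 choroid plexus markers had r = -0.0657 (adjusted permutation p = 0.825; rho 0.0027) and Col4a1 and 12 endothelial markers r = 0.341 (0.293; rho 0.161). Col1a1 and Col4a1 had r = 0.369 (0.142; rho 0.269), and Slc6a20a and Col1a1 r = 0.417 (0.142; rho -0.0067). Without their 2 farthest libraries these 4 values were 0.0546, 0.0322 (without GF saline replicates 4 and 5), 0.161 and -0.472, none of which passed after adjustment.

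Genes that process collagen, other basement membrane genes, matrix turnover genes and collagen receptors were followed as fixed lists. Of 27 tested genes for collagen processing, 3 were higher in GF than in H2O saline mice and none lower, in a comparison where 18% of all genes were higher and 14.9% lower. P4ha1, the catalytic subunit of prolyl 4-hydroxylase, averaged 84.2 ± 16.3 against 58.0 ± 10.2 CPM (0.54 ± 0.12; edgeR, adjusted p = 0.00115). P4ha2 (0.32) and the isomerase gene Fkbp14 (0.29) were the others, lost in 6 and 5 of 12 fits that left out 1 library (adjusted p up to 0.121 and 0.208). Against Abx saline mice 4 were higher, including P4ha1 (0.62) and P4ha3 (0.73), and 2 lower, Bmp1 (-0.39) and Fkbp10 (-0.47). Of all genes 14.6% were higher and 12.8% lower there. In GF against H2O morphine mice P4ha1 (0.46) and P4ha2 (0.51) were higher and Adamts3 (-0.67) lower, where 3.2% of all genes were higher and 2.66% lower. These calls were lost in 7, 3 and 7 of 10 fits that left out 1 library (adjusted p up to 0.115, 0.0756 and 0.159).

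Under antibiotics with morphine processing genes passed in both directions. Against Abx saline mice 1 was higher and 1 lower, where 2.22% of all genes were higher and 3.2% lower. Pcolce2, an enhancer of procollagen cleavage, read 7.32, 6.12, 7.67, 5.82 and 7.56 CPM in Abx morphine libraries and averaged 3.90 ± 0.782 in Abx saline, 4.21 ± 0.742 in H2O saline and 3.05 ± 0.576 CPM in H2O morphine libraries. It rose with morphine under antibiotics by 0.81 ± 0.17 (edgeR, adjusted p = 0.00475), and was 1.17 ± 0.18 higher than in H2O morphine mice (adjusted p = 6.74e-05). The difference between the morphine responses of antibiotic and water mice was 1.28 ± 0.25 (edgeR, adjusted p = 0.0207). It was lost in 6 of 22 fits that left out 1 library (adjusted p up to 0.0704). Plod1, a lysyl hydroxylase, fell with morphine under antibiotics, from 24.7 ± 1.59 to 19.1 ± 1.63 CPM (-0.37; edgeR, adjusted p = 0.0466), but 10 of 11 fits that left out 1 library lost this call (adjusted p up to 0.150). In Abx against H2O morphine mice 2 of the 27 were higher, Pcolce2 and Bmp1 (0.41), and 1 lower, Plod1 (-0.39, lost in 4 of 10 such fits, adjusted p up to 0.114). Of all genes 4.57% were higher and 5.76% lower there.

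Among other basement membrane genes, the laminin genes Lamb2 (-0.30), Lama4 (-0.43) and Lamb3 (-0.48) were lower in GF than in H2O saline mice. Lama1 (0.44) was higher, near the threshold (edgeR, adjusted p = 0.0485), and the Lamb3 call was lost in 6 of 12 fits that left out 1 library (adjusted p up to 0.101). Against Abx saline mice Lamb2 (-0.32) and Lamc3 (-0.42) were lower and Nid1 (0.41) higher, with Lamc3 lost in 5 of 12 such fits (adjusted p up to 0.0736). Lama2 (-0.42) and Lama5 (-0.49) were lower in GF than in H2O morphine mice, calls lost in 8 and 7 of 10 such fits (adjusted p up to 0.162 and 0.141). In Abx against H2O morphine mice Nid1 (-0.51) and Hspg2 (-0.67), which encodes perlecan, were lower. Of 13 tested matrix turnover genes, 3 were higher in GF than in H2O saline mice (Adamts9, Mmp16 and Timp4) and 2 lower (Mmp14 and Mmp17), against the same 18% and 14.9% of all genes. The Mmp16 and Timp4 calls were lost in 4 and 3 of 12 such fits (adjusted p up to 0.0584 and 0.0564). Mmp14, a membrane-bound protease, was also lower in GF than in H2O morphine mice (-0.68, against -0.60 under saline). Mmp16, in contrast, was lower there (-0.46), against 0.39 higher under saline, and rose with morphine under antibiotics (0.50). Its calls were lost in 7 of 10 and 3 of 11 such fits (edgeR, adjusted p up to 0.159 and 0.0694). Adamts1 (-0.81) was also lower in GF than in H2O morphine mice and Timp4 (0.55) higher, lost in 1 and 6 of 10 such fits. Of all genes 3.2% were higher and 2.66% lower there. Of 8 tested collagen receptors Ddr1 was lower in GF than in H2O mice under saline (-0.39) and morphine (-0.43), and Itga10 was higher under saline (0.86). No gene of the 4 lists passed in Abx against H2O saline mice or with morphine in water or germ-free mice.

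The difference between morphine responses was tested for all members. For germ-free minus water mice edgeR called none of 49 (0% of all genes), with 3 members at an unadjusted p under 0.05 (2325 of all 14607 genes). DESeq2 called 1 member (Col25a1, where 2.39% of all genes passed) and limma voom 0 (0.349%). The smallest edgeR p after Col25a1 were those of Bgn (0.68 ± 0.24, adjusted p = 0.165) and Col3a1 (1.56 ± 0.76, adjusted p = 0.307). Without GF morphine replicate 3 the difference for Col3a1 was -0.09. For antibiotic minus water mice edgeR also called none (0.11% of all genes, 0.0479% higher and 0.0616% lower). An unadjusted p under 0.05 was reached by 4 members (1154 of all 14607 genes). Each other tool called 1, Serpinh1 (0.477% of all genes with DESeq2 and 1.17% with limma voom). Col6a2 (0.47 ± 0.22; edgeR, adjusted p = 0.594) and Col13a1 (-1.01 ± 0.48; 0.606) followed.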

How the data were processed

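RNA of nucleus accumbens was extracted with TRIzol and turned into cDNA with a SMARTer kit, per the labels' protocols. The authors deposited raw read counts per gene in 33 libraries, made with FastQC, STAR 2.4.0 and edgeR, per the submitters' processing notes. Neither genome build nor annotation, counter or strand is given in the sources used here, so overlapping and antisense genes may share reads. A normalized table was not used. The 5 tally rows that name no gene (19.3 to 35.4% of all reads) were left out of library sizes, and 27 genes whose names had become dates were kept under those names.

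Genes were kept with edgeR's filterByExpr (minimum count 10), scaled with TMM and fitted in 1 quasi-likelihood model over 33 libraries with 6 group means and 27 residual degrees of freedom (edgeR 4.0.16, limma 3.58.1, DESeq2 1.42.0, R 4.3.3). The 8 pairwise comparisons and 2 differences of morphine response were adjusted by Benjamini-Hochberg over all 14607 genes, at 0.05. CPM is counts over TMM-scaled library size, and the standard error is the size of the log2 difference over the square root of F. The code was tested on simulated data. Levels per kb used GENCODE M21 transcript lengths, which 99.1% of tested genes and 100% of tested members had.

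The labels tie replicate numbers to no shared cage or day, so the fits carry no block. Within groups, 75 pairs of libraries differed by more than counting noise (chi-square per degree of freedom 3.10 to 37.1), so none was counted as a duplicate. Members, lists and tests were chosen with earlier results of these data known. Named are members past the threshold, the 3 with the smallest p where fewer passed, 11 members followed throughout, members with a library apart from its group, at most 4 other pathway genes past the threshold per list and comparison, and at most 2 markers per list. More genes of the lists are named where the 2 libraries high in matrix genes are described. Alternatives were DESeq2, limma voom with sample quality weights, other scalings, no filter, only the groups compared, a replicate block, a GC and length correction, and leaving out each library, read for the comparisons it belongs to and, for GF morphine replicate 3, for all comparisons with germ-free mice. Promoters are RefSeq windows of GRCm38.p6. The results of 1 gene of the basement membrane list are not reported here.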

Additional observations from a re-analysis of the deposited data

Results flagged for a closer look

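In groups of 5 or 6 libraries, a library was picked out where its gap to the nearest other value, over the whole range of its group on the log2 scale, passed Dixon's 95% critical value. This held in 21 of 285 groups of a member whose highest library reached 1 CPM, or 7.37%. Without such a filter chance picks out about 1 in 20. Some groups entered only through the library picked out, as for Prg4 in Abx saline and Col22a1 in H2O morphine libraries. The 2 shares can therefore not be compared. GF morphine replicate 3 accounted for 4 of the 21, with Col3a1 at 79.5 CPM (4.87 to 9.69 in the other libraries of its group), Prg4 at 29.3 (1.95 to 4.26), Igf2 at 55.5 (28.2 to 32.6) and Col1a2 at 51.4 (12.4 to 18.1). Abx saline replicate 1 accounted for 2, Slc6a20a at 11.6 CPM (4.49 to 6.41) and Prg4 at 3.85 (0.420 to 0.938).

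H2O morphine replicate 4 was apart for 3 genes of different classes, with Col22a1, a FACIT collagen, at 2.30 CPM (0.497 to 0.746 in the others), Col6a1 at 206 (261 to 286) and Col9a3 at 15.6 (19.6 to 21.6). Cortical neuron markers summed to 1172 CPM there, the highest of its group (median 82.8). H2O morphine replicate 3 had Col4a1 at 43.3 CPM (38.8 to 40.0) and Prg4 at 0.149 (0.843 to 1.45), and H2O morphine replicate 6 had Col6a2 at 24.5 (19.4 to 20.2). In H2O saline libraries, replicate 4 had Col22a1 at 0.0835 CPM (0.773 to 1.32) and Col28a1 at 2.34 (1.28 to 1.55), and replicate 5 had Col3a1 at 1.70 (2.61 to 2.92). GF saline replicate 3 had no Col22a1 read (0 CPM, against 0.451 to 1.40), and GF saline replicate 4 had Fn1 at 44.5 CPM (57.6 to 66.3). GF morphine replicate 5 had Col11a2 at 14.9 (23.2 to 27.1).

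Abx saline replicate 5 had Col23a1, a transmembrane collagen, at 12.9 CPM (7.36 to 9.10), Abx saline replicate 6 had Serpinh1 at 14.2 (16.8 to 18.3), and Abx morphine replicate 3 had Col24a1 at 2.69 (3.88 to 4.42). The morphine response of Pcolce2 differed between antibiotic and water mice by 1.28 on the log2 scale, by the test of that difference itself.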

How the results depend on the processing

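Counts of members called are given here with the share of all tested genes called in the same fit in brackets. Germ-free against water saline mice gave 6 (32.9%), 3 with no filter on low counts (21.8%) and 4 with a GC and length correction (18.3%). Limma voom (37.8%) and upper-quartile scaling (34%) gave 5 each there, of which 4 were higher. Antibiotic against water saline mice gave 0 (0.116%), 1 with DESeq2 (0.712%) and 2 with limma voom (1.23%). Germ-free against antibiotic saline mice gave 4 (27.4%), and 2 with upper-quartile scaling (28.7%) or no filter (17.7%). Morphine in water mice gave 0 (0%), 2 with DESeq2 (2.69%), 4 with limma voom (9.07%) and 5 with only the groups compared (6.97%). Morphine under antibiotics gave 1 (5.42%), 3 with DESeq2 (7.84%) and 6 with limma voom (16.7%). It gave 5 with only the groups compared (7.99%) and 2 with the GC and length correction (5.52%). Germ-free against water morphine mice gave 6 (5.86%), and 0 with only the groups compared (2.4%), a fit whose filter did not keep Ogn and Lum. Antibiotic against water morphine mice gave 5 (10.3%), 9 with limma voom (24.3%) or only the groups compared (16.7%) and 3 with no filter (6.53%). The difference of morphine responses gave 1 with DESeq2 for germ-free (2.39%) and for antibiotic mice (0.477%), and 1 with limma voom for antibiotic mice (1.17%). The main fit gave 0 for germ-free (0%) and for antibiotic mice (0.11%). The cause of these shifts was not tested.

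Over 66 pairs of same-numbered libraries of different groups, deviations from the group means correlated at a mean of 0.00129 (-0.450 to 0.432). This mean cannot show whether some pairs shared a cage or day, which the labels do not give. With a replicate block the counts, in the order above, were 6 (28.4%), 0 (0.0274%), 3 (25.8%), 0 (0%), 1 (5.11%), 4 (6.99%) and 4 (8.92%). They were 0 for the responses of germ-free (0%) and antibiotic mice (0.0616%) and for morphine in germ-free mice (0%). Of the 6 in germ-free against water saline mice, 5 were higher, and they were not the same 6 as in the main fit. The block took past the threshold, upwards, the adjusted p of Col3a1 (0.0576), Ogn (0.0750) and Col5a3 (0.129) in germ-free against water saline mice, Col25a1 against antibiotic mice (0.0504), Col5a2 (0.0530) and Lum (0.0719) in germ-free and Col19a1 (0.0796) in antibiotic against water morphine mice, and the Pcolce2 response (0.127). Leaving out 1 library gave 2 (without GF saline replicate 4) to 8 (without GF saline replicate 1) for germ-free against water saline mice, 2 (without Abx saline replicate 3) to 6 (without GF saline replicate 1) against antibiotic mice, 1 to 2 for morphine under antibiotics, 2 (without GF morphine replicate 3) to 8 (without GF morphine replicate 1) and 3 to 5 among morphine mice, and 0 to 1 (without GF saline replicate 1) for the response of germ-free minus water mice. Without GF saline replicate 1, 38.4% of all genes passed in germ-free against water saline mice, 33.3% against antibiotic mice and 0.418% in that response. Without GF morphine replicate 3, 2.48% of all genes passed in germ-free against water morphine mice. In the response of germ-free minus water mice Col3a1 ranged from -0.0872 (without GF morphine replicate 3) to 1.83. Without the 2 farthest libraries r was -0.224 (Col1a1 and meningeal markers), 0.0546 (Igf2 and choroid plexus markers), 0.154 (Igf2 and meningeal markers) and -0.472 (Slc6a20a and Col1a1). With group means kept it was 0.651 for Col1a1 and meningeal markers and 0.478 for Col4a1 and endothelial markers. Of the tests of single genes, 854 leave-one-out values kept direction and side of the threshold, 210 fell short of it, 3 passed newly and 1 reversed. Under the other settings the numbers were 588, 99, 20 and 0. Depth limits the low members, such as Lum and Ogn, most in the 10 GF libraries of 8.13 M reads or fewer.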
